A study of Sus scrofa with 6 samples.

Results

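The genes described here were picked by symbol, from families with proteins that package and splice mRNA precursors. They encode the heterogeneous nuclear ribonucleoproteins (hnRNPs) and the proteins of the small nuclear ribonucleoproteins (snRNPs). Also included are the SF3, SF1 and U2AF factors that mark the branch site and the 3′ splice site, and the PRPF factors. The others are the TRA2 splicing activators and the RNA-binding motif (RBM) proteins, not all of which act in splicing. Members were all probe sets whose only gene symbol in the platform annotation begins with HNRNP, SNRP, SF3A, SF3B, PRPF, U2AF, RBM followed by a digit, RBMX or TRA2, or is SF1. SRSF and LSM genes were left out. This gave 105 of 23999 probe sets, for 68 genes: 26 hnRNP probe sets (17 genes), 13 snRNP (10 genes), 35 RBM (20 genes), 13 for SF3, SF1 and U2AF (10 genes), 12 PRPF (9 genes) and 6 TRA2 (2 genes). Looking the symbols up by Entrez identifier in RefSeq gave the same 105.

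Expression was measured on 6 Affymetrix porcine arrays. Of these, 3 held oocytes of prepubertal pigs (gilts), described in the labels as developmentally incompetent, and 3 held oocytes of adult pigs (sows), described as competent. Both groups came from follicles of 2 to 6 mm, were matured in culture for 42 to 44 h, were stripped of cumulus cells and were checked for a polar body, so all were at metaphase II. The labels call the arrays biological replicates but give no number of oocytes or animals per array, so p-values measure only the spread between these samples, which may be technical.

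Splicing joins the exons of a mRNA precursor in the spliceosome, which is assembled on each intron from U1, U2, U4, U5 and U6 snRNPs. Each is a small RNA bound by proteins of its own and, except in U6, by a ring of Sm proteins. HnRNPs coat the precursor and help to choose splice sites, and several of them also move to the cytoplasm, where they affect the translation and decay of mRNAs. A metaphase II oocyte does not transcribe its genes, so the transcripts measured are stored maternal mRNAs of these proteins. The small RNAs themselves carry no poly(A) tail and were not captured.

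Array levels differed as deposited: the trimmed mean signal of the arrays was 105 to 131 in the prepubertal group and 121 to 160 in the adult group. Over the 12000 probe sets tested, the log2 difference (prepubertal minus adult) therefore had a median of −0.20 on the deposited values and −0.01 after quantile normalization, which gives every array the same distribution. Values below are after quantile normalization unless they are called deposited, and differences are relative to the bulk of probe sets. A lower total of mRNA per oocyte and fewer oocytes on an array cannot be told apart. The spiked-in hybridization controls ran the other way, at a mean log2 signal of 10.9 to 11.2 as deposited in prepubertal and 10.8 to 10.9 in adult oocytes. Of 8 oocyte marker genes on the array, 7 passed the filter on dim probe sets. The summed signal of all 8 was 10508 to 10803 in prepubertal and 8603 to 9846 in adult oocytes, led by the linker histone gene H1FOO (mean 4970 in prepubertal and 4391 in adult oocytes, adjusted p = 0.49). The brightest genes carry this sum: only 4 of the 8 had higher values in prepubertal oocytes, while ZP3, GDF9, NPM2 and KIT had lower ones. The summed signal of 19 cumulus and granulosa markers was 518 to 618 in prepubertal and 535 to 616 in adult oocytes, with INHBA and FST brightest and FSHR, AMH and STAR near background. Theca and stroma markers (6 genes) summed to 78.2 to 116 in prepubertal and 90.8 to 136 in adult oocytes, and blood, immune and endothelial markers (7 genes) to 261 to 480 in prepubertal and 327 to 450 in adult oocytes. The part of these cells in the results was not tested.

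No member passed an adjusted p of 0.05 in limma, a linear model with variances moderated across all tested probe sets and Benjamini-Hochberg adjustment over all 12000. The count was 0 of 86 tested members after quantile normalization (lowest adjusted p 0.0613), where 0.117% of all tested probe sets passed (0.025% higher, 0.0917% lower), and 0 of 86 on the deposited values (lowest adjusted p 0.136), where 0.467% passed (0.0333% higher, 0.433% lower). The other 19 members were too dim to be tested. At an unadjusted p under 0.05 there were 10 members with higher values in prepubertal oocytes, 11.6% of the 86 against 5.05% of all tested probe sets. With lower values there were 3, or 3.49% against 5.81%. On the deposited values the counts were 1 higher (1.16% against 1.14%) and 9 lower (10.5% against 13.6%). The groups did not overlap for 15 of the 86 members (17.4%, against 16.3% of all tested probe sets), 9 of them with higher values (10.5% against 7.54%) and 6 with lower (6.98% against 8.77%). On the deposited values this held for 16 (18.6% against 18.9%), 1 with higher values (1.16% against 1.82%) and 15 with lower (17.4% against 17.1%). The balance of directions thus differed between the quantile-normalized and the deposited values.

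The 10 members with higher values were probe sets of HNRNPD (both of its probe sets), HNRNPDL, HNRNPC, SNRPA1, SNRPF, RBM12B, RBM17, RBM6 and PRPF18, at 1.16-fold to 1.67-fold. The 3 with lower values were probe sets of RBM18, RBM26 and TRA2B, at 1.28-fold to 1.70-fold. On the deposited values 9 of the 10 still had a difference above 0, RBM17 being the exception at −0.07, but only the dimmer HNRNPD probe set had an unadjusted p under 0.05. The 3 with lower values had an unadjusted p under 0.05 in both settings.

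The hnRNP class held the members nearest to the threshold. HNRNPD encodes AUF1, which binds AU-rich elements of mRNAs and affects their decay. The dimmer of its probe sets had signals of 728, 710 and 608 in prepubertal oocytes, against 372, 389 and 444 in adult oocytes. Every prepubertal array lay above every adult array, as it also did on the deposited values. The signal averaged 682 ± 64.7 over the prepubertal arrays and 402 ± 37.7 over the adult ones (SD, n = 3 in each group). It was 1.67-fold higher, with a log2 difference of 0.74 ± 0.14 (SE; limma adjusted p = 0.0613, unadjusted p = 0.000176). On the deposited values the log2 difference was 0.47 (adjusted p = 0.332). This probe set passed the threshold with array weights, with a stricter filter or without prepubertal replicate 1, and not in the other 20 of 23 alternatives, over which its adjusted p reached 0.617.

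The brighter HNRNPD probe set had signals of 4220, 4976 and 4167 in prepubertal oocytes and 2660, 3336 and 3977 in adult oocytes. The groups did not overlap, and adult replicate 3 came close to the lowest prepubertal array. The log2 difference was 0.43 ± 0.13 (adjusted p = 0.251), and 0.18 on the deposited values (adjusted p = 0.624), where the groups overlapped. Both probe sets have the suffix by which Affymetrix marks probes shared by several transcripts of a gene, so they do not separate isoforms of AUF1.

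HNRNPDL, a paralogue of HNRNPD that also binds AU-rich RNA, had probe sets that differed in opposite directions. The brighter had signals of 5378, 5135 and 5145 in prepubertal oocytes, against 3893, 3682 and 4492 in adult oocytes, with a log2 difference of 0.38 ± 0.09 (adjusted p = 0.142). The dimmer had signals of 1388, 1179 and 1281 in prepubertal oocytes and 1532, 1409 and 1611 in adult oocytes, with a log2 difference of −0.24 ± 0.11 (adjusted p = 0.477). The groups did not overlap for either probe set after quantile normalization and overlapped for both on the deposited values, so HNRNPDL has no single direction here. Whether related genes cross-hybridize on these probes was not tested.

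HNRNPC encodes a core hnRNP protein that binds uridine tracts in nascent transcripts. Its brighter probe set had signals of 1555, 1667 and 1712 in prepubertal oocytes, against 1125, 1124 and 1263 in adult oocytes. All prepubertal values were above all adult values, and the mean was 1645 ± 80.8 in prepubertal against 1170 ± 79.8 in adult oocytes (SD, n = 3 in each group). The log2 difference was 0.49 ± 0.11 (adjusted p = 0.11, unadjusted p = 0.000807). On the deposited values it was 0.20 (adjusted p = 0.657), with overlapping groups. A much dimmer HNRNPC probe set had 36.8, 26.6 and 20.0 in prepubertal oocytes and 35.2, 25.05 and 14.3 in adult oocytes, with overlapping groups and a log2 difference of 0.12 ± 0.27.

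**Figure D1:**
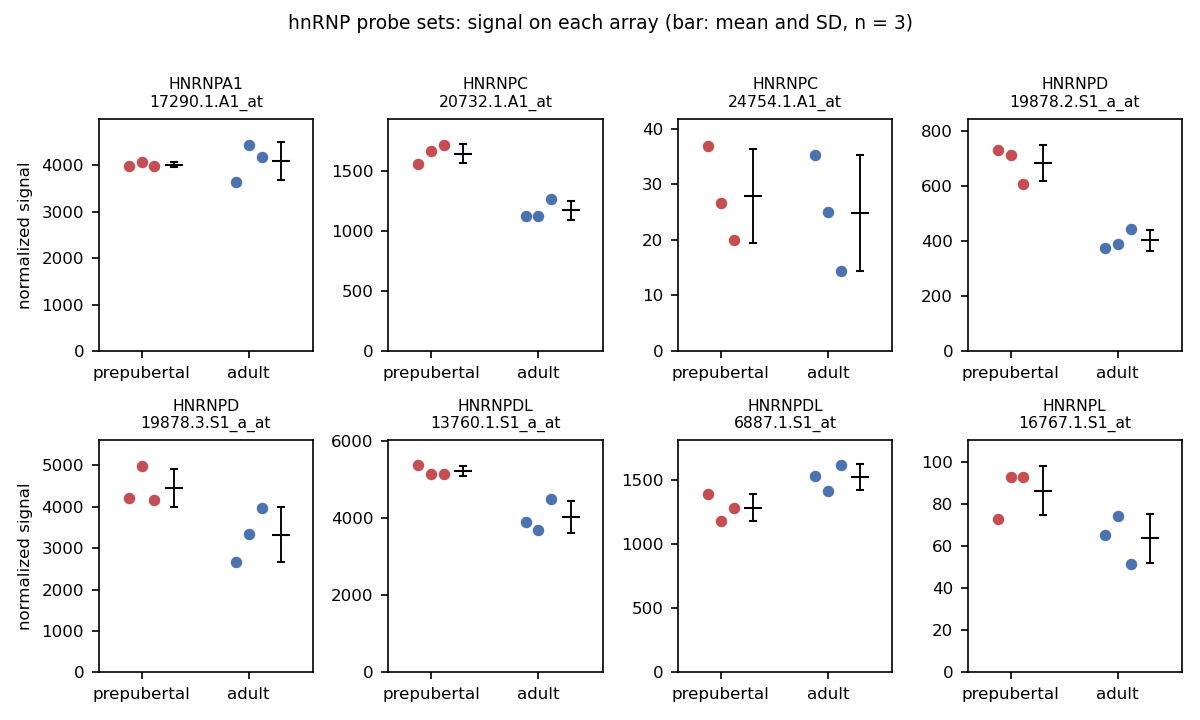
Normalized signal (vertical axis, linear from 0) of 8 hnRNP probe sets on the 3 prepubertal arrays (red) and the 3 adult arrays (blue), replicates 1 to 3 from left to right, with the mean and SD as black bars. Both HNRNPD probe sets, the brighter HNRNPC probe set and the brighter HNRNPDL probe set lie higher in every prepubertal array, the dimmer HNRNPDL probe set lies lower, and HNRNPA1 overlaps.

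The other 20 tested hnRNP probe sets had unadjusted p-values of 0.0569 or more and log2 differences between −0.30 and 0.36, 7 of them above 0 and 13 below. HNRNPL, which binds CA repeats and acts as a splicing enhancer or silencer, had the difference of 0.36 ± 0.20 (adjusted p = 0.526). Its signals were 72.8, 92.8 and 92.8 in prepubertal oocytes and 65.1, 74.4 and 51.4 in adult oocytes, so 1 array of each group lay within the range of the other. HNRNPA1, which represses the use of splice sites, had signals of 3986, 4066 and 3986 in prepubertal oocytes, against 3631, 4439 and 4184 in adult oocytes. Its log2 difference was −0.02, with a 95% confidence interval of −0.23 to 0.19. For HNRNPF, which binds G-rich sequences, the difference was −0.05 (95% interval −0.28 to 0.17). HNRNPK, which binds C-rich sequences, had −0.30 ± 0.17 for its brighter probe set (adjusted p = 0.538). Of 3 HNRNPA2B1 probe sets, the brightest had 0.05 (95% interval −0.21 to 0.30). The dimmer ones had −0.30 ± 0.18 (adjusted p = 0.575) and −0.21 ± 0.23.

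Among the snRNP genes, SNRPA1 and SNRPF had unadjusted p-values under 0.05 after quantile normalization, 2 of 12 probe sets (16.7%) against 10.9% of all tested, and none of the 12 did on the deposited values, against 14.7%. After quantile normalization 0 of the 12 separated the groups without overlap, against 16.3% of all tested probe sets. As deposited, 3 did (25%, against 18.9%), all with lower values in prepubertal oocytes, for SNRPD1, SNRPG and SNRPN. SNRPA1 encodes a protein particular to the U2 snRNP. Its signals were 1760, 2428 and 2529 in prepubertal oocytes and 1714, 1865 and 1493 in adult oocytes. Prepubertal replicate 1 lay among the adult arrays, while replicates 2 and 3 lay above them. The log2 difference was 0.39 ± 0.14 (adjusted p = 0.356), and 0.12 on the deposited values (adjusted p = 0.782). Leaving out prepubertal replicate 1 removes the value nearest the adult ones. After quantile normalization the difference was then 0.56 (adjusted p = 0.0438), in a fit where 198 of all tested probe sets passed.

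SNRPF, a protein of the Sm ring, had signals of 296, 367 and 359 in prepubertal oocytes, against 228, 217 and 301 in adult oocytes. Adult replicate 3 exceeded prepubertal replicate 1, and the log2 difference was 0.44 ± 0.17 (adjusted p = 0.378). SNRPC, of the U1 snRNP, had 1400, 2150 and 2107 in prepubertal oocytes and 1600, 1648 and 1451 in adult oocytes, a log2 difference of 0.24 ± 0.15 (adjusted p = 0.596). Here too prepubertal replicate 1 lay apart from the other prepubertal arrays, below all adult arrays.

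The remaining snRNP probe sets differed by −0.13 to 0.46. The upper end was SNRPA, of the U1 snRNP, whose signals of 24.6, 29.5 and 37.7 in prepubertal and 4.54, 31.4 and 22.8 in adult oocytes were near background (0.46 ± 0.32, adjusted p = 0.625). SNRPB2, of the U2 snRNP, spread widely in both groups, with 4433, 2647 and 4796 in prepubertal and 4167, 3884 and 2471 in adult oocytes (0.16 ± 0.22, adjusted p = 0.833). For the Sm ring genes SNRPD1, SNRPD3 and SNRPG the differences of the brightest probe sets were −0.07, 0.02 and −0.01. SNRPN, the imprinted relative of SNRPB, had −0.03 for its brighter and 0.04 for its dimmer probe set, and SNRPB had −0.13 ± 0.29.

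The RBM class spread furthest below 0. RBM18 had signals of 184, 142 and 165 in prepubertal oocytes, against 249, 258 and 236 in adult oocytes. All prepubertal arrays lay below all adult arrays in both settings, with a mean of 164 ± 20.8 in prepubertal against 248 ± 11.2 in adult oocytes (SD, n = 3 in each group). The log2 difference was −0.56 ± 0.16 after quantile normalization (adjusted p = 0.211, unadjusted p = 0.00431) and −0.80 on the deposited values (adjusted p = 0.136, the lowest of any member there). A dimmer RBM18 probe set, at 34.9 to 43.3 in prepubertal and 35.0 to 42.3 in adult oocytes, had a difference of −0.02 ± 0.21.

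RBM26, known from human cells as a partner of the nuclear exosome's adaptors, had the lowest log2 difference of all members, −0.77 ± 0.35 (adjusted p = 0.459), in a probe set near background. It had signals of 38.1, 45.8 and 4.94 in prepubertal oocytes and 64.1, 52.9 and 46.3 in adult oocytes. The prepubertal array at 4.94 lay far below the other two. The 3 other RBM26 probe sets had −0.19, −0.09 and 0.07. RBM42 had a similar pattern, with 23.8, 4.99 and 28.4 in prepubertal and 34.2, 34.4 and 33.4 in adult oocytes for a dim probe set (−0.58 ± 0.30, adjusted p = 0.50) and −0.13 ± 0.19 for a brighter one.

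Higher values in the RBM class were seen for RBM12B, RBM6 and RBM17. RBM12B had signals of 131, 161 and 172 in prepubertal oocytes, against 100, 92.8 and 124 in adult oocytes, without overlap (0.49 ± 0.18, adjusted p = 0.357). On the deposited values its groups overlapped, with a log2 difference of 0.26 (adjusted p = 0.623). RBM6, which regulates alternative splicing, had 725, 894 and 675 in prepubertal and 500, 557 and 702 in adult oocytes, and adult replicate 3 exceeded prepubertal replicate 3 (0.38 ± 0.16, adjusted p = 0.414). RBM17, which encodes the splicing factor SPF45, had 2665, 2677 and 2650 in prepubertal and 2244, 2425 and 2225 in adult oocytes. The prepubertal arrays of RBM17 were nearly equal and all above the adult ones, for a small log2 difference of 0.21 ± 0.09 (adjusted p = 0.442) that was −0.07 on the deposited values.

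The other 21 tested RBM probe sets had differences between −0.58 and 0.48, 8 above 0 and 13 below. RBM8A, the Y14 subunit of the exon junction complex, had −0.04 (95% interval −0.31 to 0.22) for its brighter probe set. RBM39, a relative of U2AF2 that acts in splice site choice, had 0.02 ± 0.15 for its brighter probe set, and RBMX, also called hnRNP G, had 0.01 ± 0.16. RBM3, induced by cold in mammalian cells, was at 41.8, 51.8 and 50.0 in prepubertal and 57.1, 62.0 and 54.6 in adult oocytes, without overlap but with a difference of only −0.21 ± 0.19 (adjusted p = 0.718).

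**Figure D2:**
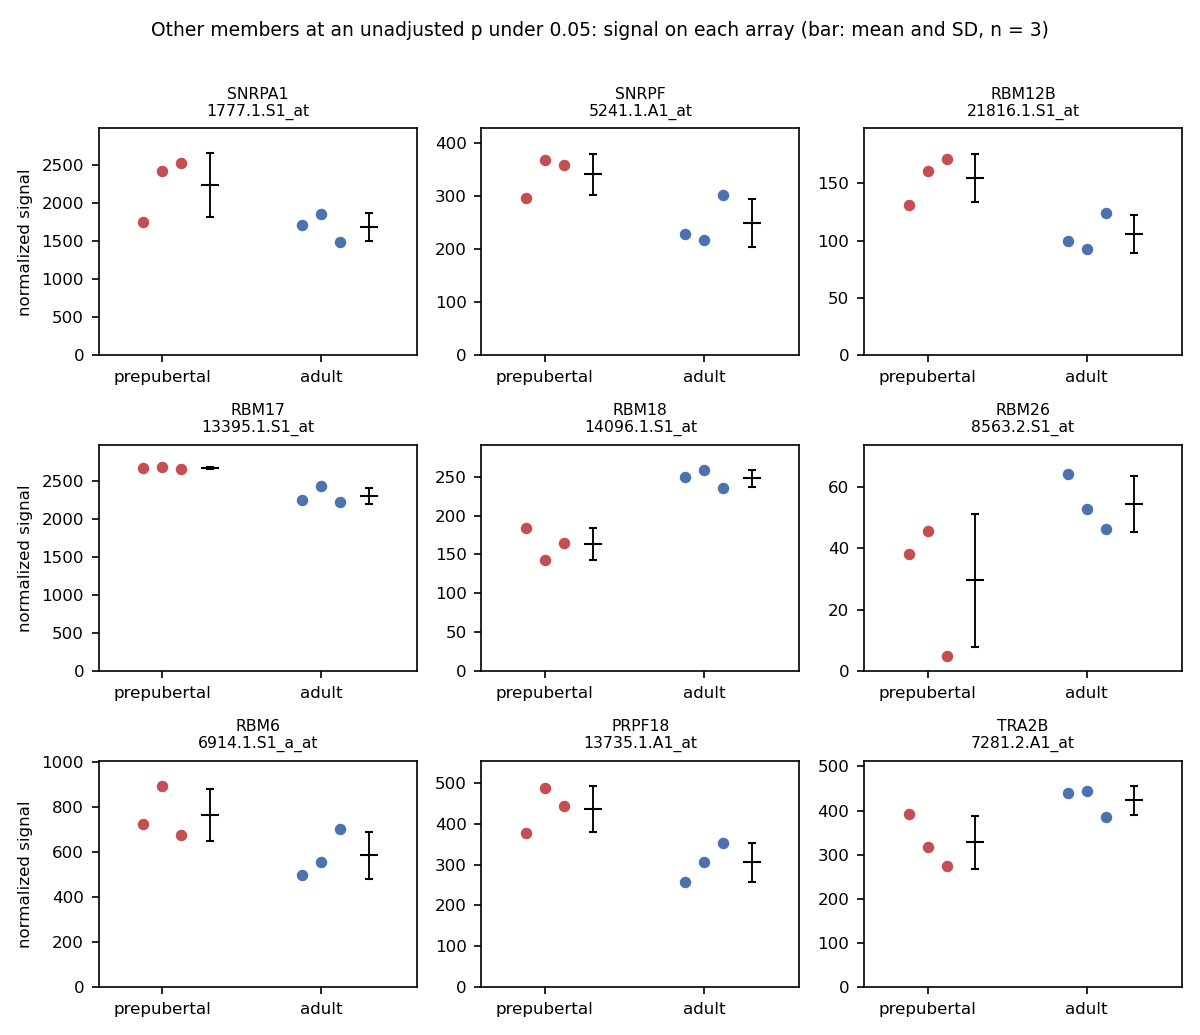
Normalized signal (vertical axis, linear from 0) of the 9 members outside the hnRNP class with an unadjusted p under 0.05, on the 3 prepubertal arrays (red) and the 3 adult arrays (blue), with the mean and SD as black bars. RBM18, RBM26 and TRA2B lie lower and the others higher in prepubertal oocytes, and the groups overlap for SNRPA1, SNRPF, RBM6 and TRA2B.

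The genes of branch site and 3′ splice site recognition had 0 of 10 tested probe sets at an unadjusted p under 0.05, against 10.9% of all tested probe sets. All 10 tested probe sets lay between −0.07 and 0.38, 7 above 0 and 3 below. The upper end was SF3B4, a U2 snRNP protein that contacts the RNA near the branch site, with 140, 186 and 195 in prepubertal and 134, 98.3 and 159 in adult oocytes (0.38 ± 0.20, adjusted p = 0.514). SF3A3, another U2 snRNP protein, had 3631, 3261 and 3189 in prepubertal and 3693, 3150 and 3108 in adult oocytes. Its difference was 0.02, with a 95% interval of −0.20 to 0.24. SF3B1, the subunit that holds the branch site adenosine, had −0.07 ± 0.12 for its brighter probe set. SF3B6 had 0.08 ± 0.13 and U2AF2, the large U2AF subunit that binds the polypyrimidine tract, −0.003 ± 0.26. The 3 probe sets of SF1, the first protein to bind the branch site, were too dim to test.

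Of the PRPF genes, PRPF18, a factor of the second catalytic step, had 377, 488 and 443 in prepubertal oocytes, against 257, 305 and 352 in adult oocytes. The groups did not overlap, and the log2 difference was 0.50 ± 0.16 (adjusted p = 0.291). On the deposited values the groups overlapped, at 0.23 (adjusted p = 0.661). PRPF3, a protein of the U4/U6 snRNP, had lower values, 789, 977 and 887 in prepubertal and 1005, 1026 and 1087 in adult oocytes, without overlap in either setting (−0.23 ± 0.12, adjusted p = 0.514). PRPF4B, a kinase of the spliceosome, had 298, 273 and 324 in prepubertal and 251, 268 and 248 in adult oocytes, without overlap (0.21 ± 0.15, adjusted p = 0.632) and with −0.06 on the deposited values. The groups thus did not overlap for 3 of 9 tested PRPF probe sets (33.3%, against 16.3% of all tested probe sets). The rest lay between −0.38 (PRPF38A) and 0.13, among them PRPF19, the ubiquitin ligase of the Prp19 complex, at −0.16 ± 0.18.

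TRA2A and TRA2B encode activators that bind GA-rich splicing enhancers. The brightest TRA2B probe set had 3826, 4224 and 3884 in prepubertal and 3552, 3954 and 3927 in adult oocytes, a difference of 0.06 with a 95% interval of −0.14 to 0.26. Another TRA2B probe set had 393, 318 and 275 in prepubertal and 440, 445 and 385 in adult oocytes (−0.36 ± 0.16, adjusted p = 0.449). Prepubertal replicate 1 lay just above adult replicate 3, and the other prepubertal arrays lay below all adult arrays. The remaining TRA2B probe sets had −0.08 and 0.10, so TRA2B has no single direction, and TRA2A had 0.16 ± 0.14 (adjusted p = 0.711).

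The hnRNP, snRNP and RBM classes were then set side by side, with the brightest tested probe set standing for each gene. The median log2 difference was 0.00 for 16 hnRNP genes (8 above 0, 8 below), 0.09 for 10 snRNP genes (6 above, 4 below) and −0.03 for 18 RBM genes (8 above, 10 below). Over all 4599 tested genes it was 0.00, with the middle 50% between −0.18 and 0.17. For the hnRNP genes the corresponding quartiles were −0.07 and 0.18, for the snRNP genes −0.03 and 0.35, and for the RBM genes −0.15 and 0.16. At an unadjusted p under 0.05 there were 3 hnRNP genes, all with higher values, 2 snRNP genes, both with higher values, and 4 RBM genes, 3 with higher values and 1 with lower. These are 18.8%, 20% and 22.2% of the tested genes of each class, against 11.5% of all tested genes (5.70% higher, 5.78% lower). The deposited values gave 1 hnRNP gene and 2 RBM genes, all with lower values, and 0 snRNP genes (6.25%, 11.1% and 0%), against 14.9% of all tested genes. Over all member genes the median was 0.02 (34 of 63 above 0).

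On the deposited values the medians were −0.24 for hnRNP, −0.17 for snRNP and −0.23 for RBM genes, against −0.21 for all tested genes. The snRNP median was the highest of these 3 classes in both settings. It was not when adult replicate 3 was left out, which gave −0.05 for snRNP, −0.01 for hnRNP and −0.05 for RBM genes after quantile normalization and −0.31, −0.22 and −0.26 on the deposited values. Nor was it on the deposited values without prepubertal replicate 3, at −0.25 for snRNP, −0.26 for hnRNP and −0.24 for RBM genes. Of these 3 classes, the snRNP genes varied most between arrays after quantile normalization. Their median deviation from the mean over the 6 arrays was then −0.06, 0.11 and 0.30 on prepubertal replicates 1, 2 and 3 and −0.09, 0.09 and −0.05 on adult replicates 1, 2 and 3, so the groups overlapped. The deviations of the hnRNP genes stayed between −0.04 and 0.03 and those of the RBM genes between −0.05 and 0.10. The order differed on the deposited values, with deviations of −0.34 to 0.31 for hnRNP, −0.10 to 0.24 for snRNP and −0.16 to 0.21 for RBM genes.

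**Figure D3:**
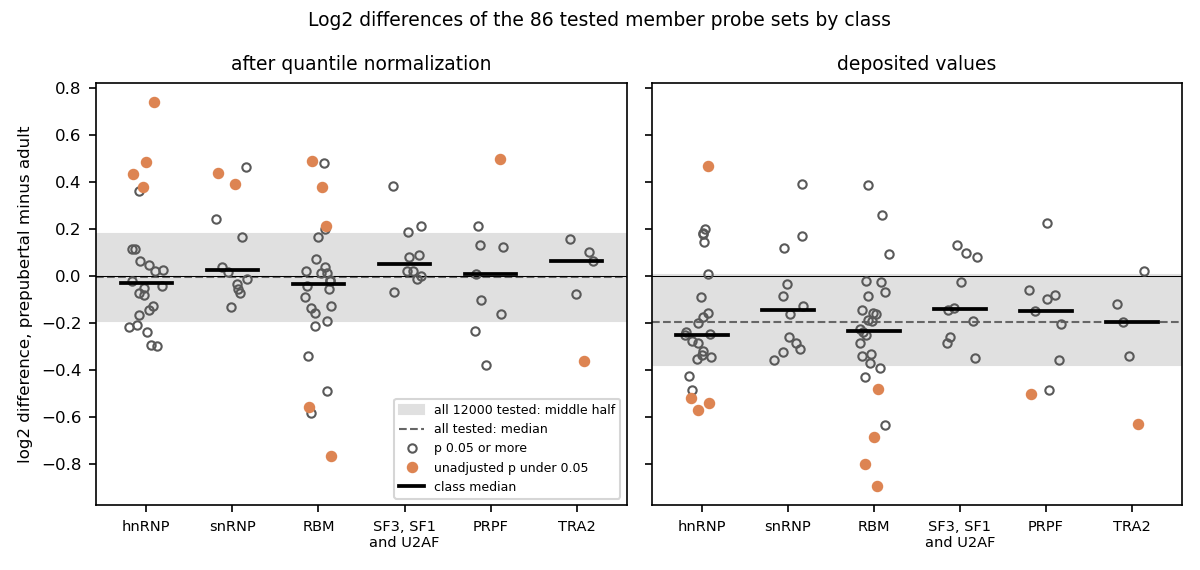
Log2 difference, prepubertal minus adult (vertical axis), of the 86 tested member probe sets by class, after quantile normalization (left) and on the deposited values (right), with filled points at an unadjusted p under 0.05. Black bars are class medians over probe sets, −0.03 for hnRNP, 0.03 for snRNP and −0.03 for RBM on the left, and the grey band holds the middle 50% of all 12000 tested probe sets around their dashed median of −0.01 (left) and −0.20 (right).

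**Figure D4:**
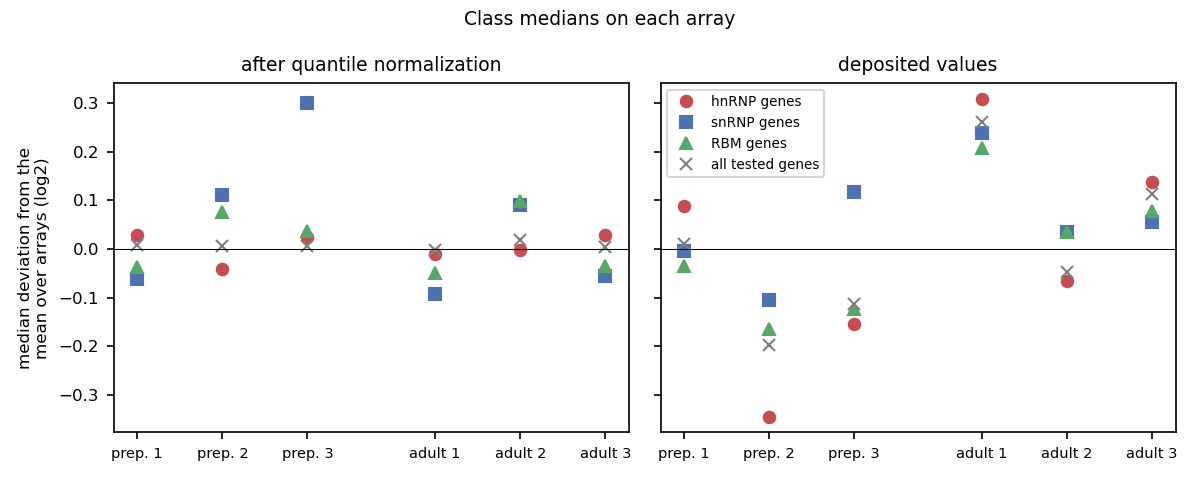
Median deviation of hnRNP, snRNP and RBM genes and of all tested genes from their mean over the 6 arrays (vertical axis, log2) on each prepubertal (prep.) and adult array. After quantile normalization (left) the snRNP genes reach 0.30 on prepubertal replicate 3, and on the deposited values (right) the hnRNP and RBM genes lie below 0 on prepubertal replicates 2 and 3, as all tested genes do, while the snRNP genes are at 0.12 on replicate 3.

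Several members were measured more than once, which gives a check within each gene. Of 18 genes with more than 1 tested probe set, the probe sets shared a sign in 9 and had opposite signs in 9 after quantile normalization. On the deposited values, which lie below 0 for most probe sets, they shared a sign in 16. Only HNRNPDL and TRA2B had opposite signs in both settings. After quantile normalization HNRNPD had 2 probe sets at an unadjusted p under 0.05 and no other member gene had more than 1. RBM26 had 2 on the deposited values, both with lower values, and HNRNPD had 1 there. RBM26 had the widest range between its probe sets, 0.84 on the log2 scale, followed by HNRNPDL with 0.62 and RBM18 with 0.54.

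**Figure D5:**
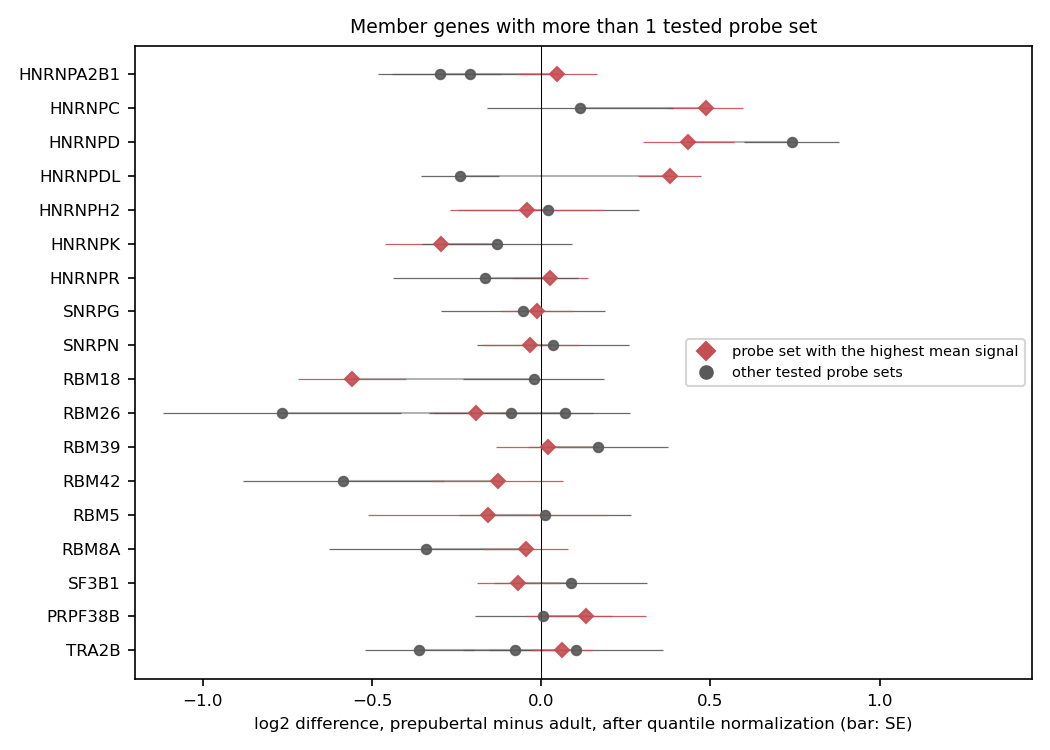
Log2 difference after quantile normalization (horizontal axis, with SE as bars) for each tested probe set of the 18 member genes that have several. Red diamonds are the probe sets with the highest mean signal and grey points the others, and HNRNPD stands furthest above 0 with both of its probe sets.

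The 19 members that did not pass the filter had mean signals of at most 14.4 in either group. They include every probe set of HNRNPU, RBM34, RBM7, SF1 and PRPF31, so 63 of the 68 genes were tested. In a fit without the filter 14 of the 19 had differences above 0 and 5 below. The same counts were not made over all dim probe sets. At an unadjusted p under 0.05 there was 1 of the 19. This was a PRPF39 probe set with signals of 2.22, 3.23 and 1.46 in prepubertal and 15.5, 10.1 and 11.5 in adult oocytes, all near background, and the brighter PRPF39 probe set had −0.10 ± 0.29.

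Other genes of the splicing pathway, taken from listed complexes outside the rule, also had no member past the adjusted threshold in either setting. Of 10 tested U snRNP and tri-snRNP genes 6 lay above 0 and 4 below (median 0.06, against 0.00 for all tested genes). TXNL4A, a protein of the U5 snRNP, had 260, 258 and 244 in prepubertal and 171, 213 and 165 in adult oocytes (0.45 ± 0.16, adjusted p = 0.332), and ZCRB1, of the minor spliceosome, had 0.32 ± 0.19. Of 13 listed helicases 4 were on the array and 3 were tested, and these 3 lay below 0 (median −0.27). DDX46, which acts on the U2 snRNP, had 166, 134 and 122 in prepubertal oocytes, below every adult array at a mean of 230 (−0.65 ± 0.19, adjusted p = 0.211), and DHX15 had −0.27 ± 0.16.

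Of 21 genes of the Prp19 complex, cyclophilins and step factors, 11 lay above 0 and 10 below (median 0.09). SLU7, a factor of the second step like PRPF18, had the largest difference of the listed pathway genes, 1.78 ± 0.54 (adjusted p = 0.244). Its signals of 184, 298 and 1081 in prepubertal and 43.5, 116 and 201 in adult oocytes overlapped, and prepubertal replicate 3 lay far above all other arrays. SNW1, a core protein of the catalytic spliceosome, had lower values without overlap, at a mean of 855 in prepubertal and 1175 in adult oocytes (−0.45 ± 0.12, adjusted p = 0.185).

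Exon junction complex genes had a median of 0.07 over 9 tested, with UPF3A at −0.54 ± 0.15 (adjusted p = 0.192) and RNPS1 at −0.50 ± 0.19 (adjusted p = 0.368). Among 19 hnRNP relatives and other regulators (median −0.02), CELF2 had −0.48 ± 0.16 (adjusted p = 0.29) and ELAVL1, which encodes HuR and binds AU-rich elements as AUF1 does, −0.42 ± 0.17 (adjusted p = 0.399). The median of 11 genes for the assembly of Sm rings was 0.15, with 9 above 0 and 2 below, and on the deposited values it was −0.11, with 3 above 0 and 8 below. SMN1, whose protein loads Sm proteins onto snRNAs, had 2538, 2359 and 2719 in prepubertal and 2225, 2071 and 2093 in adult oocytes (0.25 ± 0.10, adjusted p = 0.389), and −0.04 on the deposited values. STRAP of this list had 0.37 ± 0.20 (adjusted p = 0.529). Of 5 kinases of splicing factors (median −0.02), CLK3 had −0.52 ± 0.17 (adjusted p = 0.288) and CLK4 0.35 ± 0.21 (adjusted p = 0.566). The medians of all the lists were below 0 on the deposited values, from −0.53 for the helicases to −0.11 for Sm ring assembly, against −0.21 for all tested genes.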

How the data were processed

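Per the labels' protocols, poly(A) RNA of oocytes was bound to oligo-dT beads, amplified in 2 cycles and hybridized as biotinylated cRNA, so the 3′ ends of transcripts with a poly(A) tail contribute most signal. The deposited intensity values are linear MAS5 signals; the submitters' processing notes name this method, with version and scaling target not given in the sources used here. All 6 value columns matched a sample, and 0 were left unmatched. After 124 control probe sets were left out, 23999 probe sets remained.

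Arrays were quantile normalized, because their levels differed, 16 was added, and log2 was taken. This constant understates folds of dim genes. The 12000 probe sets with a mean log2 value at or above the median were tested with limma 3.58.1 in R 4.3.3 (lmFit and eBayes, its prior variance following mean intensity) as 2-sided tests of prepubertal minus adult. Folds are on the log2(signal + 16) scale. MAS5 detection calls were not used, and the number of arrays limits the precision. The fit was tested on simulated data.

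Symbols came from the platform annotation: 10069 probe sets had 1 symbol, 198 several and 13732 were not listed. Entrez identifiers of 9961 were found in RefSeq's table for Sscrofa11.1. No coordinates are given. Named genes followed a rule: per class the smallest unadjusted p-values (6, or 3 in small classes) and highest signals (4, or 2), the genes with the widest range between probe sets, the 2 genes of smallest p per pathway list, and bright markers. Other genes named were chosen after their values were seen. Members, lists and the choice of normalization were chosen with earlier results of these data known.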

Additional observations from a re-analysis of the deposited data

How the results depend on the processing

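Scaling shifted the class medians, while counts of calls also moved with the filter, the variance model, the array weights and the arrays included. Against 14 probe sets past the adjusted threshold over all tested, there were 56 on the deposited values, 7 with median centring, 6 with a constant of 1, 26 with a constant of 64, 2 without a filter, 51 with the filter at the 67th percentile, 0 without the intensity trend (8 members at an unadjusted p under 0.05), 28 with robust variances, 84 with array weights, 77 at an adjusted p under 0.10, and 0 to 198 when 1 array was left out (3 to 656 on the deposited values). Members past the threshold numbered 1 with the filter at the 67th percentile, with array weights and at an adjusted p under 0.10, HNRNPD each time, at adjusted p-values of 0.0454, 0.0387 and 0.0613. With 1 array left out they numbered 0 to 2, and 0 to 6 on the deposited values. The 2 were HNRNPD and SNRPA1 without prepubertal replicate 1, a fit in which 198 probe sets over all tested passed. The 6, also without that array, were probe sets of HNRNPDL, HNRNPH1, PRPF38A, RBM18, RBM26 and TRA2B. In that fit all tested probe sets had a median log2 difference of −0.25. On the deposited values the count over all tested reached 656 with 1 array left out, and it is not given here fit by fit. Whether members passed more often than all tested probe sets in these fits was not tested. Members at an unadjusted p under 0.05, 13 above, numbered 7 with median centring and 7 to 19 with 1 array left out (2 to 19 on the deposited values). Shares of all tested probe sets at that p were counted only for the main fit and for all deposited arrays. The member counts of the other fits therefore cannot be compared with all tested probe sets. Median differences on the deposited values were −0.20 for member, −0.24 for hnRNP, −0.17 for snRNP and −0.23 for RBM genes, and with median centring −0.12, −0.16, −0.089 and −0.15. The mean over a gene's probe sets gave −0.037 for hnRNP genes. With 1 array left out, the medians ranged from 0.0037 to 0.041 for member, −0.021 to 0.063 for hnRNP, −0.050 to 0.21 for snRNP and −0.056 to 0.031 for RBM genes, and on the deposited values from −0.29 to −0.16, −0.36 to −0.13, −0.31 to −0.060 and −0.28 to −0.18.

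With the replicate block 33 probe sets and 0 members passed, and 14 members had an unadjusted p under 0.05, again without a share over all tested. The arrays share only a replicate number: deviations from the group means correlated at 0.082, 0.018 and 0.028 between arrays of the same number, and prepubertal replicate 2 correlated better with adult replicate 3 (0.035). Signs turned on the deposited values for SNRPB2 (−0.085), SNRPC (−0.035), RBM17 (−0.067), the probe set of RBM26 at 0.07 (−0.19), SF3A3 (−0.26), SF3B6 (−0.19), PRPF4B (−0.059), TRA2A (−0.12) and the brightest of TRA2B (−0.20). With median centring they turned for SNRPB2 (−0.000607), RBM26 (−0.10), SF3A3 (−0.18), SF3B6 (−0.11), TRA2A (−0.037) and TRA2B (−0.11), and with trimmed-mean scaling for the dimmer RBM18 probe set (0.032). Over the fits with 1 array left out, on quantile-normalized and deposited values, these probe sets had ranges that included 0. Among hnRNPs they were HNRNPA1 (−0.35 to 0.041) and the dimmer HNRNPC (−0.20 to 0.29). In the snRNP class they were SNRPB2 (−0.31 to 0.43), SNRPC (−0.0987 to 0.45), SNRPD1 (−0.48 to 0.0026) and SNRPF (−0.012 to 0.57). The RBM class gave RBM6 (−0.035 to 0.51), RBM8A (−0.40 to 0.043), RBM17 (−0.16 to 0.25) and the dimmer RBM18 (−0.21 to 0.029). RBM26 probe sets had −0.45 to 0.23 and −0.63 to 0.060. The branch site class gave SF3A3 (−0.40 to 0.099), SF3B4 (−0.13 to 0.52), SF3B5 (−0.19 to 0.44) and SF3B6 (−0.42 to 0.16). PRPF4B (−0.15 to 0.27), TRA2A (−0.21 to 0.25) and TRA2B probe sets (−0.0948 to 0.21 and −0.25 to 0.091) were the others. Part of such a range can come from the scaling, as 9 of the 39 named probe sets changed sign on all deposited arrays. With 1 array left out, 12 changed sign from the main fit after quantile normalization and 15 on the deposited values. Other causes were not tested. Dim probe sets, at signals near the constant of 16, limit what their differences can show.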
